A study of Danio rerio with 9 samples.

Results

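A set of 234 oligonucleotide probe IDs, out of 16176 on the array, gave a signal above blank spots in zebrafish (Danio rerio) embryos at the 64-cell, high and sphere stages and at none of the 6 stages from 30% epiboly to tailbud. They were chosen from the measured values themselves. A probe ID counted as above blanks when its Cy5 spot median, averaged over its spots, exceeded the 95th percentile of the 262 blank spots (spots printed without a probe) of the same array. Every Cy5 value of the set below is therefore a description and carries no test. The rule asks for absence of signal above blanks, which is weaker than absence of the transcript: at 30% epiboly only 12 of the 234 lay below the median of the blank spots.

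RNA of uninjected, outbred wild-type embryos kept at 28.5 °C was measured at 9 stages, with between 30 and 50 embryos of 1 clutch pooled per stage. The 3 early stages were 64-cell, high and sphere. The 6 later ones were 30% epiboly and 50% epiboly, then shield, then 75% epiboly, 90% epiboly and, last, tailbud, and values below follow this order. Each stage was 1 array with 2 colours, on which the stage RNA (Cy5, red) was hybridised together with a pool (Cy3, green) to which each of the 9 stages gave the same amount of total RNA. No stage had a replicate, so no difference between 2 stages has a test, and p-values are given only for the pool channel, across arrays.

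In fish, the egg supplies the early embryo with messenger RNA before the embryo's own genome is active. Around the blastula stages the genome becomes active and many of these maternal transcripts are removed, partly by factors carried in the egg and partly by newly made ones such as the microRNA miR-430, which promotes shortening of the poly(A) tail and decay. Epiboly, the spreading of the cell layer over the yolk, starts after sphere. The 64-cell embryo is in cleavage, ahead of that activation, so transcripts seen there are taken as maternal from background knowledge. Whole embryos were measured, and loss from all cells, loss from some cells and dilution by other RNA cannot be told apart. None of the 234 IDs matched a gene in the name tables used here, and the files do not pair the IDs with genes or sequences. Members are therefore described as a group, and the 4 chosen by a fixed rule are given by ID.

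In the early embryo the signals of most of the 234 members were only a few times the blank level or less. Over the 3 early stages in order, their median Cy5 signal was 1500 scanner units (lowest 599, highest 11258), then 674 (421 to 4818) and 654 (434 to 2847). It was 352 (187 to 512) at 30% epiboly, followed by 241 (126 to 376) and, on the shield array, 194 (102 to 311). The last 3 medians were 436 (132 to 624), 321 (138 to 516) and 295 (118 to 402). The early and later ranges do not overlap once each value is set against its own array's blanks, which is what the rule demands. In multiples of the blank level, the members' median was 2.52, 1.60 and 1.53 at the early stages. From 30% epiboly on it was 0.68, 0.63, 0.48, 0.70, 0.60 and 0.73. The 3 later arrays with the most probe IDs above blanks were tailbud (11273), 75% epiboly (10890) and 90% epiboly (10192). That no member was above blanks there is what the rule demands. The shield array was the dimmest of the 9, with 6531 IDs above blanks.

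**Figure D1:**
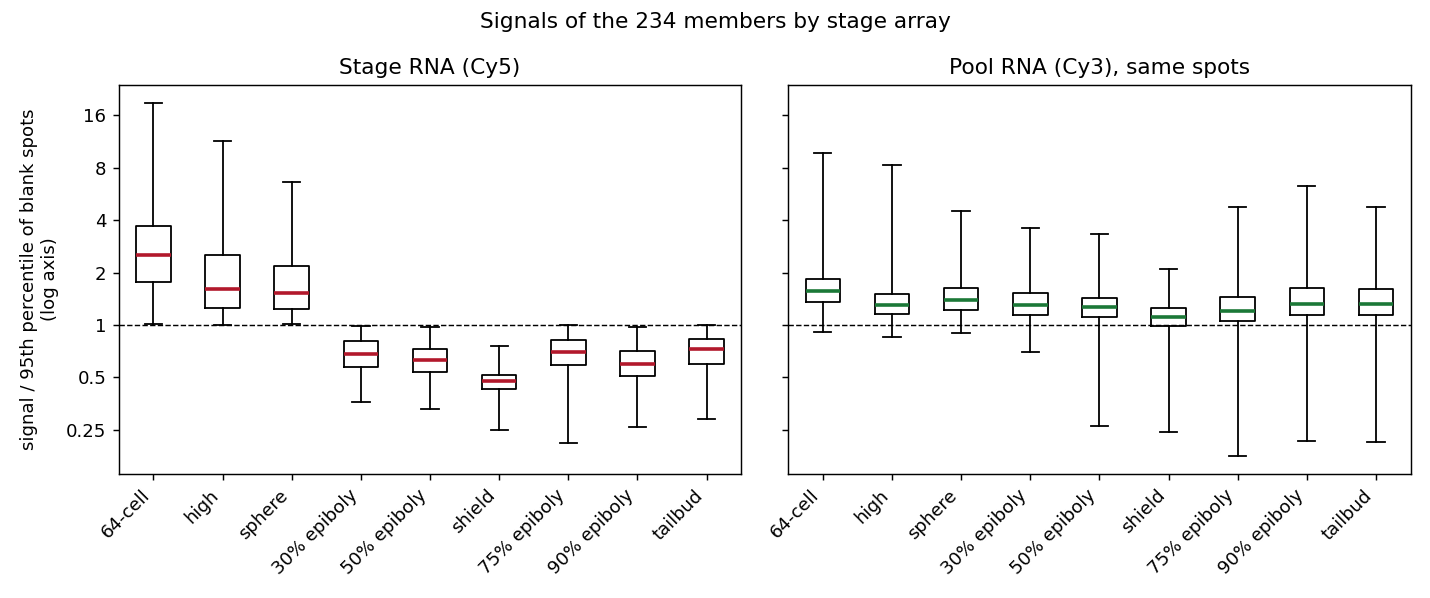
Signal of the 234 members at each stage as a multiple of the 95th percentile of that array's blank spots (log axis), for the stage RNA (Cy5, left) and the pool RNA on the same spots (Cy3, right). Boxes span the quartiles with the median as a coloured line, whiskers reach the lowest and highest member, and the dashed line is the blank level. The Cy5 medians go from 1.53 at sphere to 0.68 at 30% epiboly, while the pool medians are 1.39 and 1.30 on the same arrays.

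The 2 members with the largest difference between sphere and 30% epiboly were CGENXEB_456003898_0 and CGENXEB_456004737_0. The Cy5 spot median of CGENXEB_456003898_0 was 2365, 1084 and 1948 at the early stages, then 218, 156, 157, 267, 265 and 255 from 30% epiboly to tailbud. Its early and later values do not overlap, as the dimmest early value is 1084 and the brightest later one 267. The log2 ratio of stage over pool went from 1.36 at sphere to -1.76 at 30% epiboly, a difference of -3.11, while the pool signal of the same spot was 1080 and 978 on those 2 arrays. The early signal of CGENXEB_456003898_0 was at least 2.65-fold that of the later stages in Cy5 after loess and Aquantile normalization. Such a bound sets the mean log2 level of the 3 early arrays (10.35) against that of the 6 later arrays (7.36 as measured), each later value raised, where lower, to the 95th percentile of that array's blank spots after the same normalization, which gives 8.94. The bound rests on 1 array per stage, all with stage RNA in Cy5, and no array with exchanged dyes was analysed here.

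For CGENXEB_456004737_0 the Cy5 signal was 5120.5, 2359 and 2068.5 at the early stages, then 300, 170, 169, 279, 195 and 195 from 30% epiboly to tailbud. It was already lower at high and sphere than at 64-cell in scanner units, but the 64-cell array was also brighter as a whole, and the log2 ratio was 1.26, 1.02 and 0.87 at these stages. From sphere to 30% epiboly the ratio differed by -2.98. The signal of CGENXEB_456004737_0 was at least 4.80-fold higher early than later (measured mean log2 levels of 11.20 and 7.45). Its pool signal ranged from 780 at shield to 2449 at tailbud and was above the pool's blank level on all 9 arrays. The image software flagged the spots of both IDs on 3 of the 9 arrays.

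The 2 members with the largest difference upward between 64-cell and sphere were CGENXEB_456010908_0 and CGENXEB_456015881_0. The Cy5 signal of CGENXEB_456010908_0 was 841, 623 and 757 early, then 374.5, 254, 199, 385.5, 289 and 263. Its early log2 ratios were 0.35, 0.88 and 1.09, so relative to the pool it was higher just before the step than in the cleaving embryo. At 30% epiboly the ratio was -0.12, a difference of -1.21 from sphere. The Cy5 signal of CGENXEB_456015881_0 was 945, 588 and 716 early, then 415, 306, 212, 575, 215 and 295.5. It came close to the blank level again at 75% epiboly (0.92 times that level) and was 0.41 times the level on the next array. Its log2 ratios were 0.59, 1.13 and 1.18 early and -0.13 at 30% epiboly. The early signals of these IDs were at least 1.29-fold and 1.33-fold the later ones.

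**Figure D2:**
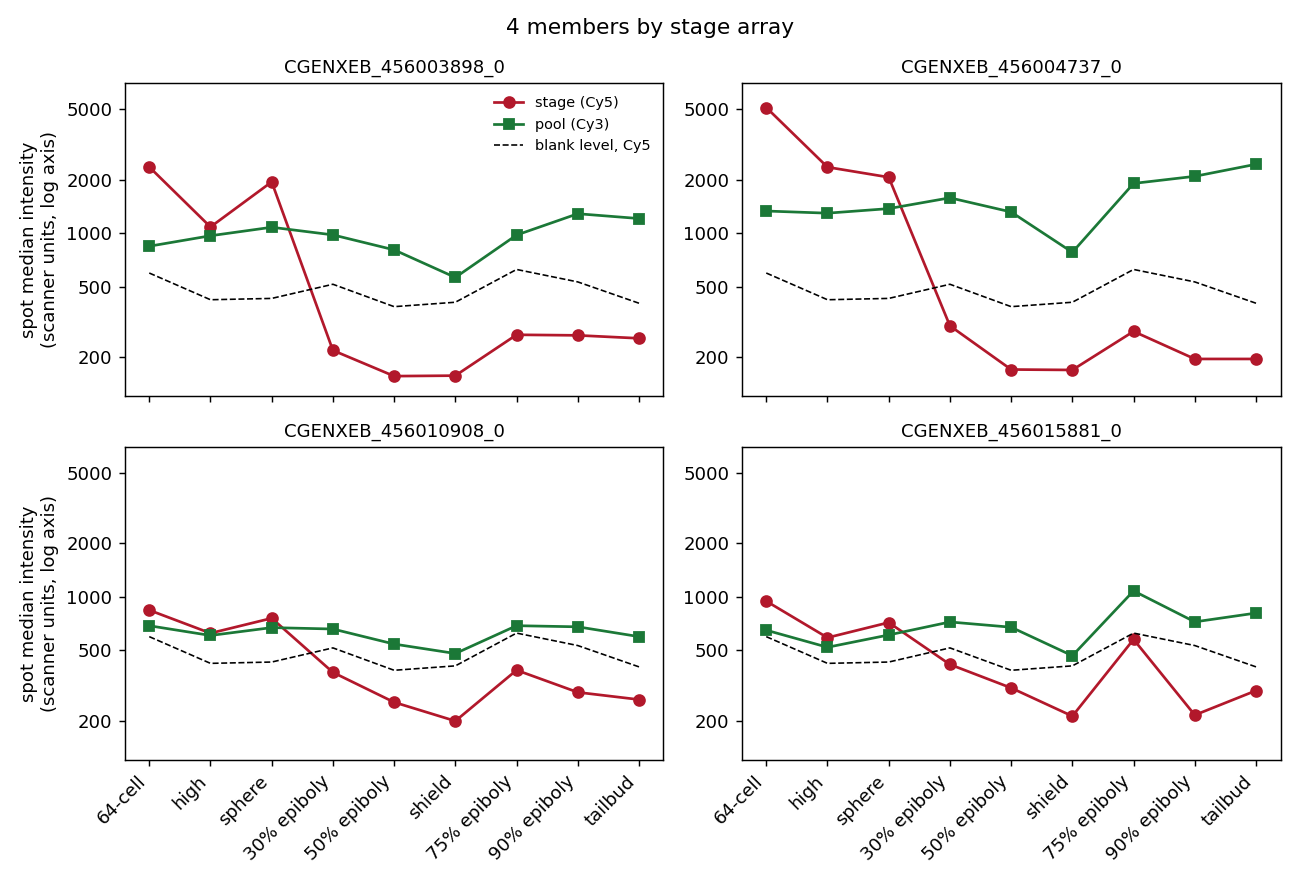
Spot median intensity (scanner units, log axis) of 4 members on the 9 stage arrays: the 2 with the largest difference from sphere to 30% epiboly (top) and the 2 with the largest upward difference from 64-cell to sphere (bottom). Red circles are stage RNA, green squares the pool on the same spot, and the dashed line is the 95th percentile of Cy5 blanks. In each panel the red points lie above the dashed line at the first 3 stages and below it at the other 6.

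Over the whole set, most of the difference lay at a single step, the one at which the rule places the change. The log2 ratio of stage over pool was computed after normexp background correction and loess normalization within each array. Its median over the 234 members was 0.90, 0.93 and 0.79 at the early stages, then -0.33, -0.58, -0.38, -0.61, -0.82 and -0.85. From sphere to 30% epiboly the ratio was lower for 232 of the 234, with a median difference of -1.15 (lowest -3.11, highest 0.14). At least 2-fold lower were 141 members, 60.3% of the set, against 6.50% of all IDs. The median difference over all IDs was 0.06. The rule used this contrast, so the comparison with all IDs describes the choice. For 198 members (84.6%) this step was the most negative of the 8 between consecutive stages, against 25.2% of the 8617 IDs above blanks at all of the first 3 stages. A further 15 had it from shield to 75% epiboly, 8 from 75% to 90% epiboly and 6 from 30% to 50% epiboly. The rule sets the members' passage below the blank level between sphere and 30% epiboly, so the comparison with the 8617 also describes the choice.

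As a gauge of spot error, 127 IDs were printed more than once, and their spots differed in this step with a median SD of 0.24 on the log2 scale, and 90% of these SDs were at or under 0.85.

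**Figure D3:**
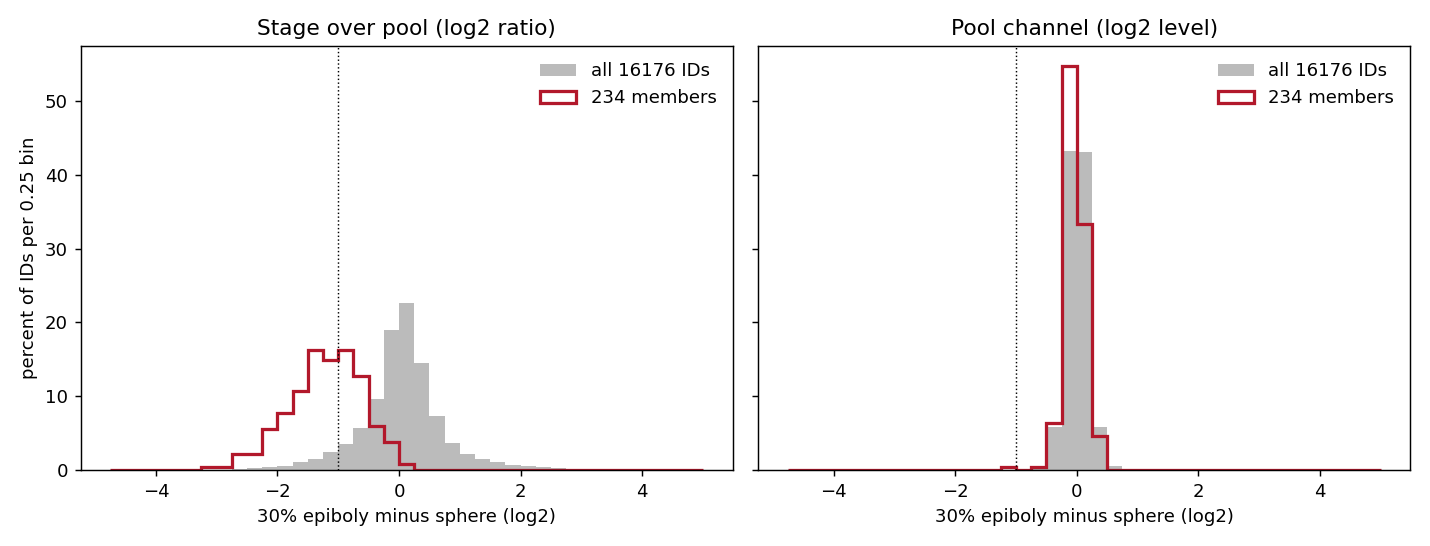
Difference between the 30% epiboly and sphere arrays on the log2 scale for the 234 members (red outline) and all 16176 IDs (grey), as a percent of each set per 0.25-wide bin. The left panel shows the stage-over-pool ratio and the right panel the pool channel alone, and the dotted line marks 2-fold lower. Members have a median of -1.15 on the left and -0.04 on the right.

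Before that step the members differed little between arrays. From 64-cell to high the median difference in the ratio was -0.01 (all IDs 0.03), with 1 member at least 2-fold lower and 1 at least 2-fold higher, against 0.420% and 0.377% of all IDs. From high to sphere the median was -0.14 (all IDs 0.01). Here 8 members (3.42%) were at least 2-fold lower, against 0.668% of all IDs, and no member was at least 2-fold higher, against 1.45%. The 807 IDs not above blanks at 30% epiboly but above them later had the same median of -0.14, with 17 (2.11%) at least 2-fold lower. The 61 IDs above blanks through 30% epiboly and at no later stage had a median of -0.10, with 0 at least 2-fold lower. Over both steps 156 of the 234 were lower at sphere than at 64-cell, 6 of them at least 2-fold (1.09% of all IDs) and none at least 2-fold higher (1.87%). The most negative difference from 64-cell to sphere was -1.78. The ratio was highest at 64-cell for 99 members, at high for 89 and at sphere for 46. Of the 8617 IDs above blanks at all 3 early stages, 41.0% had their highest early ratio at sphere. Which early stage was highest depended on the scale: as a multiple of the blank level it was 64-cell for 212 members, and in Cy5 alone after Aquantile it was 64-cell for 106 and sphere for 64. The rule bears on these values too, since a transcript below blanks before sphere is not in the set.

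After 30% epiboly the ratio to the pool was lower still, although the Cy5 signal was already under the blank level. It was lower at tailbud than at 30% epiboly for 204 of the 234, with a median difference of -0.53 (all IDs -0.02), and at least 2-fold lower for 41 (17.5%) against 7.23% of all IDs. The rule also used the Cy5 signal of each of these later arrays, so the comparisons with all IDs here describe the choice. The single steps were uneven. The median was -0.18 into 50% epiboly, where 2 members were at least 2-fold lower (0.810% of all IDs). It was 0.21 into shield and -0.27 into 75% epiboly, where 13 members (5.56%) were at least 2-fold lower against 1.45% of all IDs. At that step 6 (9.84%) of the 61 IDs above blanks through 30% epiboly and at no later stage were at least 2-fold lower (median -0.55). Of the 807 IDs above blanks again later, 5 (0.62%) were (median 0.01). The members' medians at the last 2 steps were -0.19 and -0.07. In multiples of the blank level the Cy5 signal did not follow that order, as its median was 0.68 at 30% epiboly and 0.73 at tailbud, so these signals are read as at or near blanks and not ranked.

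The pool channel was not used directly by the rule and held the same RNA on every array. It describes how the same spots varied when the RNA did not change. Both channels were read from the same spots, however, so a choice by Cy5 can reach the pool values. Spots that were dimmer in both channels on the later arrays can enter the set through the rule. The members' median pool signal ranged from 1.57 times the pool's own blank level on the 64-cell array to 1.11 times on shield. It was 1.39 times on sphere, 1.30 on 30% epiboly and 1.33 on tailbud. On the 3 early arrays 98.3%, 91.9% and 97.4% of the members were above the pool's blank level, against 80.2%, 75.3% and 76.8% of all IDs. From 30% epiboly on the members' shares were 93.2%, 91.9%, 70.5%, 85.9%, 91.5% and 88.5%, against 74.0%, 77.7%, 75.4%, 77.7%, 74.6% and 74.6% of all IDs. Only on the shield array was the members' share under that of all IDs. All members had early Cy5 signal above blanks, and early RNA is part of the pool. Shares above those of all IDs can therefore follow from the choice. The median normalized pool level (log2) was 8.75 among members and 9.29 over all IDs. Over the 8617 IDs above blanks at all of the first 3 stages it was 10.35. Between sphere and 30% epiboly the normalized pool level differed by a median of -0.04 among members, 1 of which was at least 2-fold lower (0.229% of all IDs). The 6 later arrays were then compared with the 3 early ones in the pool channel over all IDs (limma, two-sided, Benjamini-Hochberg adjustment, 7 residual degrees of freedom). No member passed an adjusted p of 0.05, and 4 of all IDs did (0.0247%). On simulated data the same fit called 0 of 50 IDs changed by 0.25 on the log2 scale. It called 21 of 50 changed by 0.5 and 41 of 50 changed by 1. The fit therefore cannot show that the pool channel was steady against small shifts. Unadjusted, 26 members (11.1%) had p under 0.05, against 582 (3.60%) of all IDs. The members' median difference, later minus early, was -0.13 against -0.01 over all IDs, and 194 of the 234 were lower on the later arrays. The median standard error per member was 0.13. The pool channel of the set thus lay slightly lower on the later arrays, by less than the stage difference at the step, and its part in the result was not tested.

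For 3 of the 234 members the pool signal was also at least 2-fold lower on the later arrays, against 49 of all 16176 IDs. The differences of these 3 were -3.71, -2.02 and -1.20 on the log2 scale (limma, adjusted p = 0.49, 0.96 and 0.96). At its lowest their pool signal reached 0.26, 0.18 and 0.24 times the pool's blank level. Their stage-over-pool ratios differed between later and early arrays by 0.61, -0.01 and -1.07. For the first of these IDs the ratio was higher later, and for the second it was nearly equal, so their lower Cy5 signal was matched by a lower signal from unchanged RNA. Without these 3 the median difference from sphere to 30% epiboly was again -1.15, and 140 of the remaining 231 were at least 2-fold lower. For the named IDs the pool difference was 0.05 ± 0.18 (SE) for CGENXEB_456003898_0 and 0.30 ± 0.12 for CGENXEB_456004737_0 (limma over 9 arrays, adjusted p = 0.98 and 0.96), both upward. It was -0.20 ± 0.14 for CGENXEB_456010908_0 and 0.36 ± 0.12 for CGENXEB_456015881_0 (limma, adjusted p = 0.96 for each). From sphere to 30% epiboly the pool level of these 4 IDs, in the same order, differed by -0.10, 0.11, -0.06 and 0.32.

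The pool exceeded its blanks on all 9 arrays for 149 members (63.7%, against 67.6% of all IDs). It did so on at least 5 arrays for 219 members, against 12285 of all 16176 IDs. For 1 member it did so on none, which was not counted over all IDs. With the 99th percentile of blanks in place of the 95th, 58 members were above on all 9 arrays (24.8%, against 55.1% of all IDs). A transcript at one level in 3 stages and absent from 6 would stand 3-fold, or 1.58 on the log2 scale, above a pool of equal parts. That ratio was reached by 12 members at 64-cell, 10 at high and 2 at sphere, and by 3 in the mean of the early stages. It was not counted over all IDs, of which 90% had ratios at or under 0.72, 0.71 and 0.63 at these stages. Among members these limits were 1.38, 1.42 and 1.21, and the members were chosen by early Cy5 signal, so the difference describes the choice. The value of 1.58 assumes signals free of background. The members' median pool signal was only 1.57, 1.30 and 1.39 times the pool's blank level on the 64-cell, high and sphere arrays. Background left in the signals and the normexp offset can both make measured ratios smaller. These counts therefore cannot tell whether the other members were present at later stages.

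Members differed in how far they stood from the blank level, which describes the same Cy5 values that the rule used. The weakest of the 3 early signals was a median of 1.41 times the level (1.00 to 5.72), and it was at sphere for 132 members, at high for 97 and at 64-cell for 5. The strongest of the 6 later signals was a median of 0.83 times the level (0.46 to 1.00), at tailbud for 73 members, at 30% epiboly for 71 and at 75% epiboly for 67, and never at shield. Within 10% of the level on at least 1 side were 110 of the 234. The bound of early over later signal, with later values raised to the blank level, was at least 2-fold for 72 members and at least 4-fold for 11, with a highest value of 6.76-fold. It compares Cy5 levels and takes no account of a change in the pool signal. Among the 11 is CGENXEB_456007134_0 (4.26-fold), with a log2 pool difference, later minus early, of -3.71 and a flag on 8 arrays. Among the 72 is CGENXEB_456003389_0 (2.02-fold), with a pool difference of -1.20. For 8 members the bound was under 1, so no fold is given for them.

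**Figure D4:**
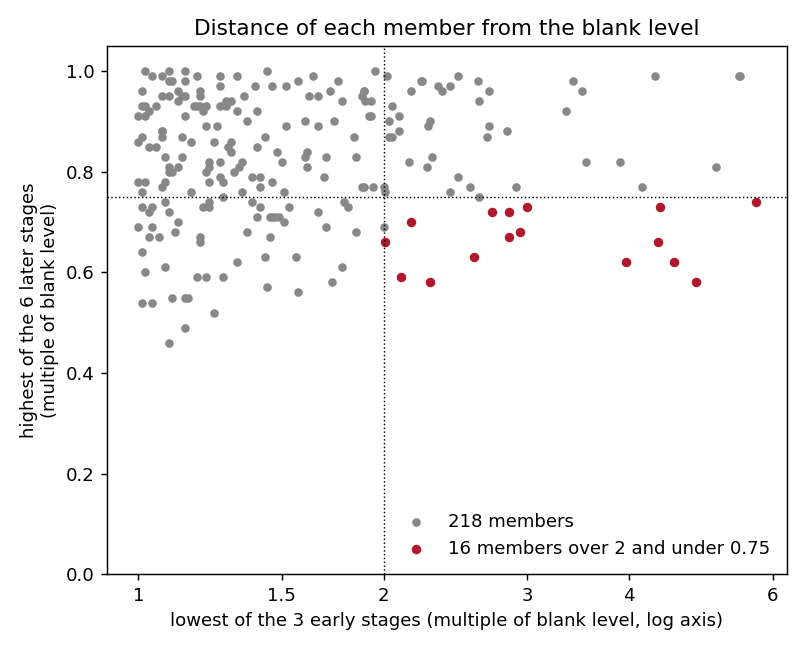
Each point is 1 of the 234 members: the lowest of its 3 early Cy5 signals (x, log axis) against the highest of its 6 later ones (y), both as multiples of the blank level. Red points are the 16 above 2 times the level early and below 0.75 times later (dotted lines). Within 10% of the level on at least 1 axis are 110 members.

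A group of 16 members, picked after their values were seen, was more than 2 times the blank level at all 3 early stages and under 0.75 times at all 6 later ones. Their median multiple was 6.19 at 64-cell (3.16 to 18.90), 3.63 at high and 2.97 at sphere, and the medians of the 6 later stages lay between 0.42 and 0.62. These limits already demand more than a 2-fold drop in multiples of the blank level from sphere to 30% epiboly. In the ratio to the pool the difference had a median of -2.22 (-3.11 to -1.40), which describes the choice. Their bounds of early over later signal ran from 1.91-fold to 6.76-fold with a median of 3.10-fold. On the pool channel the same spots had a median multiple of 2.06 on the sphere array and 1.89 on 30% epiboly.

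At the edges of the rule, members and non-members differed little. At high the dimmest member was 1.000 times the level, and the nearest ID that missed the rule at that stage alone was 0.998 times. At 75% epiboly the brightest member was 1.000 times the level and the nearest ID outside 1.008 times, and at tailbud these were 0.999 and 1.003. In all, 326 IDs failed the rule at exactly 1 array: 104 at tailbud, 61 at 30% epiboly, 59 at sphere, 48 at 75% epiboly, 42 at high and the rest on 3 other arrays. Of these, 120 were within 10% of the level. None of the 262 blank spots and none of the 296 other control spots met the rule. The blank spots themselves set the level, and only 2 of them were above it at all 3 early stages, 1 of these on all 9 arrays. Their absence from the set is therefore no check on the rule.

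Most probes that were above blanks in the early embryo and not at 30% epiboly exceeded the blanks on at least 1 later array, and how many did so differed between arrays with the share of all IDs above blanks. Of the 8617 IDs above blanks at all of the first 3 stages, 1041 were not above at 30% epiboly, and the 234 members are 22.5% of these. The other 807 were above blanks at some later stage. Of the 1041, 727 (69.8%) were above at tailbud, against 69.7% of all IDs. At 75% epiboly these were 604 (58.0%) against 67.3%, and at 90% epiboly 540 (51.9%) against 63.0%. At 50% epiboly they were 308 (29.6%) against 56.7%, and on the dim shield array 18 (1.73%) against 40.4%. The order of the 5 arrays is the same for the 1041 as for all IDs, and a part of array brightness in these counts was not tested. From sphere to 30% epiboly the 807 had a median difference of -0.63, and 248 (30.7%) were at least 2-fold lower, against 60.3% of the members. Their ratio at tailbud differed from that at 30% epiboly by a median of 0.12, against -0.53 among the members. Both sets are defined by the same Cy5 values, and these differences were not tested. A further 61 IDs were above blanks through 30% epiboly and at no later stage.

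**Figure D5:**
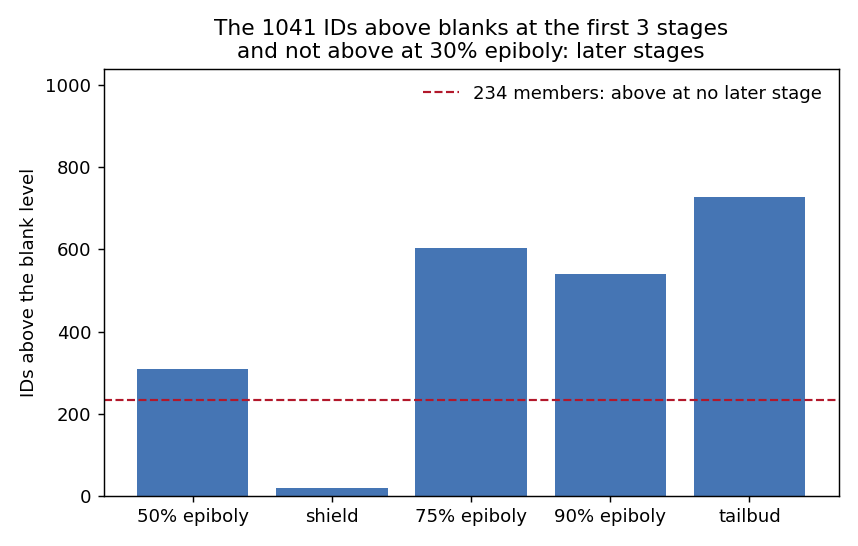
Number of the 1041 IDs above blanks at the first 3 stages and not above at 30% epiboly that were above blanks at each later stage (bars from 0). The dashed line marks the 234 members, above blanks at none of these stages. The bars run from 18 at shield to 727 at tailbud.

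Spot quality varied across the arrays. The image software flagged 26.1% of the members' spots at 30% epiboly and 31.2% at shield, against 19.0% and 18.5% of all IDs, and between 2.14% and 5.56% at the 3 early stages, against 2.50% to 14.3% of all IDs. What the flag codes mean was not stated in these sources. Flagged on no array were 89 members, and 212 had no flag on the 3 early arrays. The local Cy5 background around the members' spots was 120 scanner units at sphere and 142 at 30% epiboly, against 122 and 143 for all IDs. The 235 spots of the set lay in 30 of the 32 print blocks, with 0 to 18 per block (median 7).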

How the data were processed

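The authors' deposited scanner tables, 1 per stage, hold spot and local background intensity for red (Cy5, stage) and green (Cy3, pool), unnormalized, per the file headers (ImaGene). The deposited value table holds log2 values by the authors. Recomputed from the scanner tables as red over green, each spot mean minus background mean, they matched within 0.001 for 99.2% to 99.3% of IDs per array, so they were read as stage over pool, uncentred.

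The blank level is the 95th percentile of an array's 262 blank spots. Ratios used spot mean and background median, normexp (offset 50) and loess with control spots at weight 0 (limma 3.58.1, R 4.3.3). The pool channel was quantile normalized between arrays and fitted with limma over 16176 IDs, 3 against 6 arrays, a step tested on simulated data. Fold bounds raise each later Cy5 value to the 95th percentile of blanks on the normalized scale. The lowest ID above blanks was below that level on all 9 arrays, for example 5.87 against 8.69 (log2) at 90% epiboly. On this scale 4, 31 and 26 members lay below the level at 64-cell, high and sphere. No ID was filtered out. The members and lists were chosen with earlier results of these data known. Named IDs are the 2 largest differences downward from sphere to 30% epiboly and the 2 upward from 64-cell to sphere; the gene lists planned were not used, because no ID had a gene name here. With 1 array a stage, the number of arrays limits precision. Alternatives covered the blank level, spot summary, background, normalization, flags, fold size and left-out arrays.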

Additional observations from a re-analysis of the deposited data

Results flagged for a closer look

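In the pool channel, 165 of the 234 members were above the pool's blank level on the shield array, apart from the other 8 arrays, where the number lay between 201 (75% epiboly) and 230 (64-cell). The gap to the nearest array was 0.554 of the whole range, above Dixon's 95% critical value for 9 values. For a single measure, chance gives such a gap in about 5% of groups. Several measures were screened at both ends, and only this one passed. The members' median pool signal on the shield array, as a multiple of the blank level, gave a gap of 0.192. Over all IDs the shield array did not stand apart in this count (12195 IDs, against 11968 to 12971 on the other arrays). It was the dimmest array in both channels, with a median signal of 325 in Cy5 and 548 in Cy3. Leaving shield out of the rule gave 235 members.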

How the results depend on the processing

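The number of members was 172 with the 90th percentile of blanks, 336 with the 99th, 277 with spot means and 224 with local background subtracted. It was 279 with Cy5 after loess and Aquantile, which was added after seeing the data. These sets share 129, 132, 181, 213 and 180 IDs with the 234, and 71 of the 234 (30.3%) are in all of them. Of those 71, 64 (90.1%) were at least 2-fold lower at 30% epiboly than at sphere, against 6.50% of all IDs. All these rules choose by the Cy5 signal at the same stages, so this share describes the choice. Leaving 1 array out of the rule gave 234 (without 64-cell) to 338 (without tailbud) members. Leaving out IDs flagged on any array left 89, and the stricter distances from the blank level, also added then, left 16.

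Of the 234, between 148 and 176 were at least 2-fold lower from sphere to 30% epiboly under the other scalings, against 7.38% to 11.7% of all IDs. The upper ends come from the authors' value table with medians subtracted. That table held 230 of the 234 members and 15982 of the 16176 IDs. Shares from it are still of all 16176 IDs, so IDs missing from it count as neither lower nor higher. At least 4-fold lower were 25, against 0.909% of all IDs. From 64-cell to high, the authors' uncentred table gave 107 members lower and 0 higher, against 35.6% and 0.155% of all IDs. Its median over all IDs moved by -0.90 at that step. With medians subtracted it gave 1 lower and 2 higher (0.952% and 0.736% of all IDs). Cy5 alone gave 1 and 2 (0.655% and 0.723%), and a 4-fold rule 0 and 0 (0.0742% and 0.0495%). From high to sphere a 4-fold rule gave 0 lower (0.0371% of all IDs). In the pool channel 149 members (63.7%, against 67.6% of all IDs) were above blanks on all 9 arrays. With the 99th percentile these were 58 (24.8% against 55.1%), by spot means 95 (40.6% against 60.5%) and with the 90th percentile 204 (87.2% against 74.6%), so whether the members' share was above or below that of all IDs depended on the level. The limma count of members in the pool channel ranged from 0 to 2 with 1 array left out. It was 2 without 30% epiboly, both lower on the later arrays, against 0.0865% of all IDs. No paired analysis was possible because each stage has 1 array. Members near the blank level are limited by their signal over background.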

Other observations

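A single member was printed as 2 spots. Neither spot met the rule on its own, and the ID entered the set through the average of its spots. The difference in its ratio from sphere to 30% epiboly was -0.98 at one spot and 0.24 at the other.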
